A study of Mus musculus with 27 samples.

Results

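The entries described here are the tRNA genes for alanine, valine, leucine, isoleucine and methionine in a table of small RNAs measured in subcellular fractions of mouse stem cells, neural progenitors and neurons. They were taken by name from the tRNA class of that table, without use of their values, and initiator methionine tRNA (iMet) was kept apart from elongator methionine tRNA (Met). They number 56 of the 193 tRNA entries and of the 1013 entries of all classes, and the other 137 tRNA entries carry other amino acids. By amino acid they were 7 entries for Ala, 19 for Val, 18 for Leu, 1 for Ile, 3 for Met and 8 for iMet, with 13 anticodons in all (CAT counted separately for Met and iMet). The samples were 27 small RNA libraries in 9 groups of 3: the chromatin, nucleoplasm and cytoplasm fractions of embryonic stem cells (mESC), neural progenitor cells (mNPC) and cortical neurons (mCtx). The mESC were the E14 line, grown on gelatin with LIF. The mNPC were a line made by the submitting laboratory, kept in DMEM/F12 with B27 lacking vitamin A and given EGF and FGF daily at 10 ng/ml. The mCtx were primary cortical neurons, held for 5 days on poly-L-lysine. The labels name no edited allele and no drug, and mESC and mNPC were 1 line each. Libraries of a group are labelled as biological replicates, without a word on whether each had a culture of its own, and the p-values cover the spread among these libraries only.

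A tRNA brings one amino acid to the ribosome and reads the codon that pairs with its anticodon. RNA polymerase III makes tRNAs in the nucleus as precursors, which are trimmed at both ends, spliced where the gene holds an intron, given the CCA end and exported to the cytoplasm. The initiator tRNA starts every protein, and elongator Met tRNA reads the same codon inside the chain. Most anticodons are encoded by several gene copies, often identical in the mature tRNA.

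The commonest of these RNAs was tRNA-Val-CAC, which reads the valine codon GUG. The gene copy tRNA-Val-CAC-2-5 is shown because it was the only one of the 56 entries whose sequence could be read from the reference used. Its series carried the highest levels, and its relation to a sister copy differed between cell types. The capitals mark the anticodon, read 5′ to 3′. The gene lies on the minus strand at chr13:23446142-23446214 of mouse build GRCm38.p6, and the sequence is from RefSeq.
tRNA-Val-CAC-2-5: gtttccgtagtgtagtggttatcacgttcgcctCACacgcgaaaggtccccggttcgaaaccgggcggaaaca
The sequence is 73 bases long, with the anticodon at positions 34 to 36 counted from its first base. Of the 56 entries, 55 had exactly the coordinates of a tRNA gene in RefSeq GRCm38.p6, the exception being tRNA-Ala-TGC-2-1. The genes were clustered: 25 lay on chromosome 13 between 21170206 and 23530419, a span of 2.36 Mb, and 6 lay on chromosome 1 between 171038614 and 171111515. The 4 tRNA-Leu-CAA entries were 105 to 107 bases long and tRNA-Ile-TAT-2-3 was 93 bases, against 82 to 83 for the other Leu entries, 73 for Val and 72 for iMet. The genes for tRNA-Leu-CAA and tRNA-Ile-TAT are known to hold introns.

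The copies were not independent measurements. By their names the 56 entries formed 35 mature sequences, of which 8 had 2 or more copies and held 29 entries. The copies tRNA-Val-AAC-1-1 (chromosome 3, 30601270 to 30601342) and tRNA-Val-AAC-1-2 (chromosome 11, 48856637 to 48856709) differed by 1.48% at most in 27 of 27 libraries. Copies of different names could also have nearly equal values: tRNA-Leu-CAG-1-5 (chromosome 13, 23453432 to 23453514) and tRNA-Leu-CAG-2-1 (chromosome 1, 171038614 to 171038696) were within 5% of each other in 25 of 27 libraries. Reads shared by copies may therefore stand behind several entries, and a count of entries may repeat the same reads. Levels of an anticodon are given as the sum over its copies, in reads per 1000000 (RPM), and this sum can count a shared read more than once. The entries do not separate full-length tRNAs from their fragments.

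In the whole table the cell labels went with their marker miRNAs: the miR-290 to miR-295 list (14 entries) summed to 19861 to 93870 RPM in mESC and to 0 in every mNPC and mCtx library, and the miR-124 and miR-128 list (10 entries) to 12810 to 45272 RPM in mCtx against at most 938 RPM elsewhere. The chromatin label went with C/D-box snoRNAs (78 entries), at 237098, 161044 and 127966 RPM on average in chromatin of mESC, mNPC and mCtx, against 2386, 372 and 345 RPM in cytoplasm. The lowest value above 0 in a library ran between 5.16 and 59.1 RPM, so a listed 0 in a library is not evidence of absence. Read depth itself is unknown. The library mESC chromatin 1 stood apart, with 33031 RPM over all 56 entries against 12540 and 7846 RPM in the other two, and mNPC chromatin 3 was low, with 1988 RPM against 4138 and 4659 RPM. RPM are relative amounts: in such bulk samples fewer cells of a type and less RNA per cell cannot be told apart.

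Valine and leucine tRNAs made up nearly all of the signal. The Val entries held 64.5% of the summed RPM of the 56 entries in the lowest library, 87.6% in the median library and 95.5% in the highest. The Leu entries held 3.59% in the lowest library, 11.8% in the median and 35.6% in the highest. Ranked by mean RPM over the 27 libraries among the 40 tRNA anticodons of the table, tRNA-Val-CAC was at rank 2 with 9747 RPM, behind tRNA-Lys-CTT with 15258 RPM. The rest followed at rank 6 for tRNA-Val-AAC, 10 for tRNA-Leu-CAG, 11 for tRNA-Leu-CAA, 14 for tRNA-iMet-CAT and 21 for tRNA-Met-CAT. The remaining 7 anticodons, Val-TAC, Leu-TAA, Ala-TGC, Ala-AGC, Leu-AAG, Ile-TAT and Leu-TAG, lay at ranks 26, 28, 29, 31, 32, 35 and 37, and each was listed above 0 in 4 to 7 libraries. RPM are not divided by length, so levels of the longer Leu and the shorter Val genes are not compared per molecule. The sums can also repeat reads shared by copies, which bears on these ranks and on the Val and Leu shares and ratios.

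**Figure D1:**
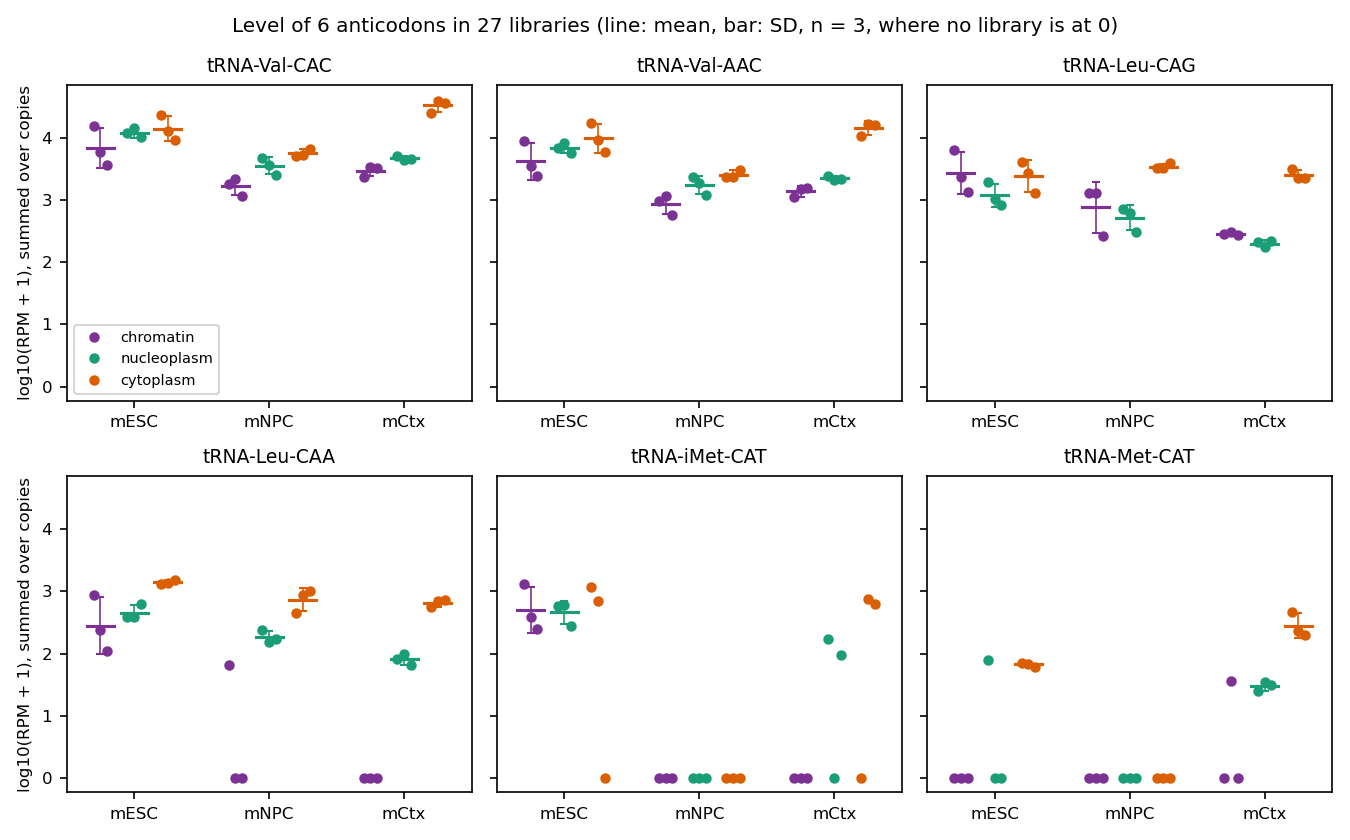
Level of the 6 most abundant of these anticodons in each of the 27 libraries, as log10(RPM + 1) of the sum over copies, by cell type and fraction; points are libraries, and the mean with its SD is drawn where no library of the group is at 0. In mCtx cytoplasm tRNA-Val-CAC was at 25117 to 39542 RPM, above every other library, while tRNA-iMet-CAT was at 0 in all 9 mNPC libraries.

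Relative to all tRNA reads, these tRNAs had a larger mean share in cytoplasm than in either nuclear fraction of the same cells. Their share was 13.7 ± 8.35% in chromatin and 20.5 ± 3.75% in nucleoplasm of mESC, against 27.2 ± 2.67% in cytoplasm (SD, n = 3 here and in the shares that follow). In mNPC it was 13.8 ± 6.20% in chromatin and 22.2 ± 3.43% in nucleoplasm, against 31.4 ± 1.95% in cytoplasm. In mCtx it was 23.5 ± 2.31% in chromatin and 33.6 ± 2.35% in nucleoplasm, against 47.0 ± 7.35% in cytoplasm. Within each cell type the 3 chromatin libraries lay below the 3 cytoplasmic ones. The nucleoplasm libraries did so in mNPC and mCtx, while in mESC the highest of them, at 24.8%, lay above the lowest cytoplasmic library, at 24.6%. The smallest two-sided p that an exact permutation test of 3 against 3 libraries allows is 0.10, so none was run.

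The amino acids divided these shares differently. Val took 22.0 ± 2.33% of tRNA reads in mCtx chromatin, 31.8 ± 2.11% in mCtx nucleoplasm and 43.3 ± 7.64% in mCtx cytoplasm. In cytoplasm of mNPC it took 20.6 ± 1.41%, against 22.8 ± 2.57% in mESC. Leu was highest in mNPC cytoplasm, at 10.7 ± 0.648%, against 3.86 ± 0.298% in mESC cytoplasm; in mCtx cytoplasm it was 2.97 ± 0.497%. The ratio of Val to Leu RPM was accordingly 5.97 ± 1.11 in mESC cytoplasm, 1.93 ± 0.107 in mNPC cytoplasm and 15.1 ± 4.66 in mCtx cytoplasm.

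**Figure D2:**
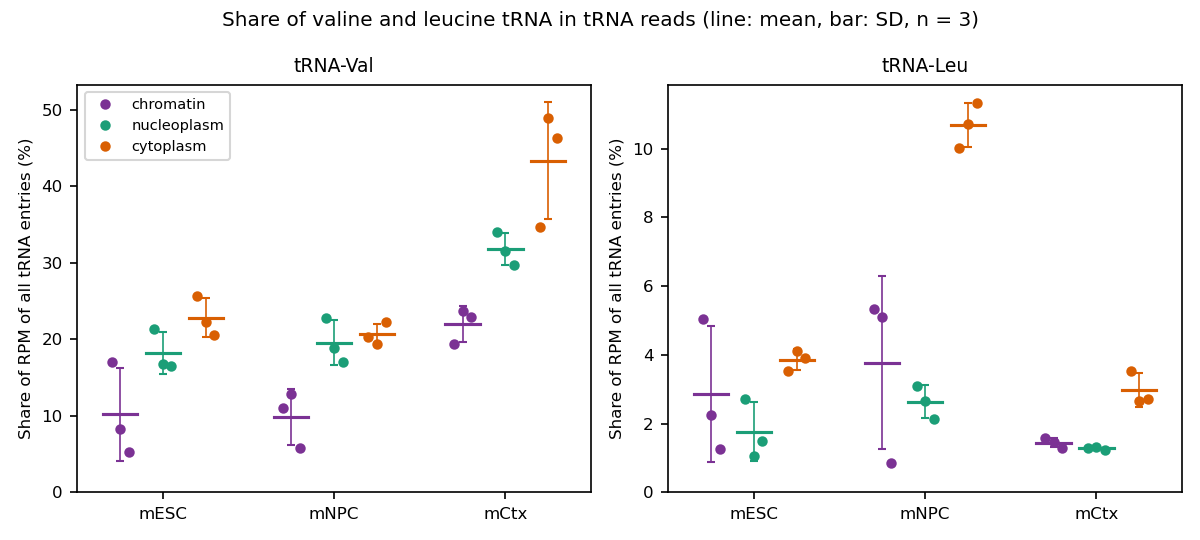
Share of the RPM of all tRNA entries (%) taken by the Val and the Leu entries, by cell type and fraction; points are libraries, lines means and bars SD (n = 3). The Val share was 43.3 ± 7.64% in mCtx cytoplasm and the Leu share 10.7 ± 0.648% in mNPC cytoplasm.

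Single entries were tested across the whole table with limma on log2(RPM + 1), and an entry is said to have risen or fallen where its Benjamini-Hochberg adjusted p over the 851 entries tested was under 0.05. Of the 56 entries 48 reached 1 RPM in 3 or more libraries and were tested (3 of Ala, 17 of Val, 17 of Leu, 1 of Ile, 2 of Met and 8 of iMet); the 8 others were not. The size of a difference on this scale depends on the pseudocount for low entries and where a group is listed at 0. In chromatin against cytoplasm, 2 of the 48 rose and 12 fell in mESC, where 24.9% of all entries rose and 29.5% fell. In mNPC 0 rose and 22 fell, against a background of 19.3% rising and 19.5% falling. In mCtx 0 rose and 26 fell, against 20.2% rising and 23.9% falling. The median log2 difference of the tested entries was -0.95 in mESC, -1.36 in mNPC and -3.20 in mCtx, and 0 over all entries in each. The share of entries that fell in mESC was thus near that of the table, and the shares in mNPC and mCtx were above it.

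In nucleoplasm against cytoplasm, 1 entry rose and 4 fell in mESC, against 14% rising and 5.17% falling among all entries. In mNPC 0 rose and 6 fell, against 9.4% rising and 6.11% falling. In mCtx 0 rose and 23 fell, against 13.5% rising and 11.8% falling, with a median of -2.62. Where no entry rose, none did so at an unadjusted p under 0.05 in limma either. Of the entries above 0 in all 6 libraries of a comparison, all 15 in mNPC chromatin, all 21 in mCtx chromatin and all 24 in mCtx nucleoplasm lay wholly below their cytoplasmic libraries, whereas 12 of 22 did in mNPC nucleoplasm, 1 of 23 in mESC chromatin and 3 of 25 in mESC nucleoplasm. The matching share over all entries of the table was not computed, so these counts have no baseline. Copies with nearly equal values also repeat in them. Other tRNAs moved with these entries in mCtx: of the 111 tested entries for other amino acids, 5 rose and 69 fell in chromatin, with a median of -2.57, and 0 rose and 56 fell in nucleoplasm. In mNPC chromatin 7 of the 111 rose and 38 (34.2%) fell, also above the 19.5% of all entries that fell. In mESC chromatin, by contrast, 28 of the 111 rose and 29 fell. The snoRNA share of listed reads was 50.4%, 31.7% and 21.97% in chromatin of mESC, mNPC and mCtx, against 0.391%, 0.0520% and 0.0564% in cytoplasm. When RPM were scaled to reads outside snoRNA, the mESC counts in chromatin against cytoplasm became 7 risen and 6 fallen, and when they were centred on entries above 0 in every library, 7 risen and 5 fallen. Rescaling moves all entries above 0 together, so the shares over all entries given above are no baseline for these rescaled counts.

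In mNPC against mESC, 0 entries rose and 26 fell in chromatin (15.9% of all entries rose and 29% fell). In nucleoplasm 0 rose and 23 fell (12.8% and 35.8%), and cytoplasm had 1 that rose and 15 that fell (14.1% and 27.5%). In mCtx against mNPC, 3 rose and 4 fell in chromatin (16% of all entries rose and 11.9% fell). In nucleoplasm 3 rose and 4 fell (23.5% and 10.3%), and cytoplasm had 14 that rose and 0 that fell (21.5% and 10.8%). Of the listed reads, the whole tRNA class took 3.10%, 2.89% and 4.19% in the chromatin, nucleoplasm and cytoplasm of mNPC, against 16.0%, 12.3% and 12.97% in mESC. In mCtx cytoplasm it was 11.3%. The splits depended on scaling: with RPM scaled to tRNA reads, mNPC against mESC cytoplasm had 6 risen and 9 fallen, and mCtx against mNPC had 10 and 4 in chromatin. Nucleoplasm then had 8 and 0, and cytoplasm 11 and 6. Centring on entries above 0 in every library gave 5 and 10 for mNPC against mESC cytoplasm, and for mCtx against mNPC 10 and 4, 10 and 2, and 13 and 5 in the same order of fractions. The shares over all entries in this paragraph belong to the fit without rescaling and are no baseline for the rescaled counts. At an unadjusted p under 0.05 in limma, 0 rose in chromatin and in nucleoplasm of mNPC against mESC, and 1 fell in cytoplasm of mCtx against mNPC. An endothelial and mesenchymal miRNA list (8 entries, of which 2 to 7 were above 0 in a group) also differed between the cell types, with 112 to 345 RPM in mNPC against 949 to 7594 RPM in mESC, and 2192 to 4099 RPM in mCtx; the part of these levels in the tRNA results was not tested. The same holds for a microglia and blood list (2 entries), at 0 in all mNPC libraries, against 126.03 to 1774 RPM in mESC, and at most 44.5 RPM in mCtx. A glia list (3 entries) was at 0 to 288 RPM in mNPC, against 0 in all mESC libraries, and at 50.2 to 101.4 RPM in mCtx.

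Anticodon sums were tested in the same way, in a table where the copies of each anticodon were summed and p-values adjusted over its 729 features. All 13 anticodons were tested. In chromatin against cytoplasm 1 rose and 6 fell in mESC (26.3% of all features rose and 30.7% fell), 5 fell in mNPC (21.8% and 16.2%) and 8 fell in mCtx (22.4% and 17.6%). In nucleoplasm against cytoplasm 1 rose and 3 fell in mESC (16.2% and 3.29%), 2 fell in mNPC (8.92% and 4.25%) and 5 fell in mCtx (14.8% and 5.08%). For mNPC against mESC 6 fell in chromatin (18.2% and 25%) and 4 in nucleoplasm (14.7% and 34%), and 1 rose and 6 fell in cytoplasm (15.5% and 24.1%). For mCtx against mNPC 0 rose and 0 fell in chromatin (17.3% and 13%), where 1 fell at an unadjusted p under 0.05 in limma. For mCtx against mNPC 1 rose in nucleoplasm (26.6% and 10.4%) and 4 rose in cytoplasm (18.5% and 11.7%).

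The common valine tRNA, tRNA-Val-CAC, had 2313, 3314 and 3282 RPM in the 3 mCtx chromatin libraries and 5151, 4446 and 4586 RPM in mCtx nucleoplasm, against 25117, 39542 and 36248 RPM in cytoplasm. The fractions did not overlap. The log2 difference was -3.49 ± 0.41 (SE) in chromatin, with a limma adjusted p of 5.044e-07, and -2.81 ± 0.41 in nucleoplasm, with an adjusted p of 2.404e-05. The second valine tRNA, tRNA-Val-AAC, which reads GUU among the valine codons, had a like pattern, and sharing of reads with tRNA-Val-CAC was not tested. It had 1093, 1516 and 1542 RPM in mCtx chromatin and 2398, 2101 and 2156 RPM in nucleoplasm, against 10543, 16884 and 15945 RPM in cytoplasm. Its log2 difference was -3.37 ± 0.41 in chromatin (limma adjusted p = 9.567e-07) and -2.68 ± 0.41 in nucleoplasm (adjusted p = 5.218e-05). Scaled to tRNA reads, both nucleoplasm calls were lost (adjusted p = 0.2511 for Val-CAC and 0.4305 for Val-AAC), while both chromatin calls held under every setting tried.

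In mNPC the valine tRNAs were lower in chromatin, and in nucleoplasm they did not pass the test. The tRNA-Val-CAC sum was 1824, 2146 and 1154 RPM in chromatin and 4790.2, 3627 and 2554 RPM in nucleoplasm, against 5135, 5168 and 6622 RPM in cytoplasm. The chromatin libraries all lay below the cytoplasmic ones, by -1.76 ± 0.41 on the log2 scale (limma adjusted p = 0.0015). In nucleoplasm the difference was -0.66 ± 0.41 (adjusted p = 0.5452). For tRNA-Val-AAC the differences were -1.57 ± 0.41 in chromatin (limma adjusted p = 0.004144) and -0.56 ± 0.41 in nucleoplasm (adjusted p = 0.7619); the chromatin call was lost with reads outside snoRNA as the scale, at an adjusted p of 0.1036.

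In mESC the fractions overlapped. The tRNA-Val-CAC sum was 15534, 5897 and 3601 RPM in chromatin and 11731, 14144 and 10132 RPM in nucleoplasm, against 23040.4, 12957 and 9110.3 RPM in cytoplasm. The log2 difference in chromatin was -1.01 ± 0.41, with a limma adjusted p of 0.03879, and that of tRNA-Val-AAC -1.22 ± 0.41, with an adjusted p of 0.01507. These calls were lost with snoRNA reads left out of the scale, where the Val-CAC difference was 0.13, after centring and in a fit of the 2 groups alone. They were also lost without mESC chromatin 2 or 3 or mESC cytoplasm 1, and for Val-CAC without mESC cytoplasm 2, with adjusted p up to 0.2916 for Val-CAC and 0.1187 for Val-AAC. In nucleoplasm neither passed the test, at -0.23 (adjusted p = 1) and -0.50 (adjusted p = 0.5594) in limma.

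Between cell types, cytoplasmic valine tRNA was lowest in mNPC. In mNPC cytoplasm tRNA-Val-AAC had 2336, 2323 and 3072 RPM, against 16934, 9333 and 5865 RPM in mESC cytoplasm, a difference of -1.93 ± 0.41 (limma adjusted p = 0.0005252). For tRNA-Val-CAC the same difference was -1.32 ± 0.41 (limma adjusted p = 0.01187), and it was lost without mESC cytoplasm 1, at an adjusted p of 0.09479, after centring, and with the highest copy in place of the sum. In mCtx against mNPC cytoplasm tRNA-Val-CAC rose by 2.56 ± 0.41 (limma adjusted p = 3.576e-05) and tRNA-Val-AAC by 2.47 ± 0.41 (adjusted p = 6.055e-05), with no overlap, under every setting tried. In the nuclear fractions both fell in mNPC against mESC. The log2 differences of tRNA-Val-CAC were -2.06 in chromatin (limma adjusted p = 0.000235) and -1.75 in nucleoplasm (adjusted p = 0.001062), and those of tRNA-Val-AAC -2.29 in chromatin (adjusted p = 8.386e-05) and -1.99 in nucleoplasm (adjusted p = 0.0003382). In mCtx against mNPC neither passed the test there, with 0.83 for Val-CAC in chromatin (limma adjusted p = 0.1474) and 0.41 in nucleoplasm (adjusted p = 0.5507). All of the mNPC against mESC calls for the valine anticodons were lost when RPM were scaled to tRNA reads.

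**Figure D3:**
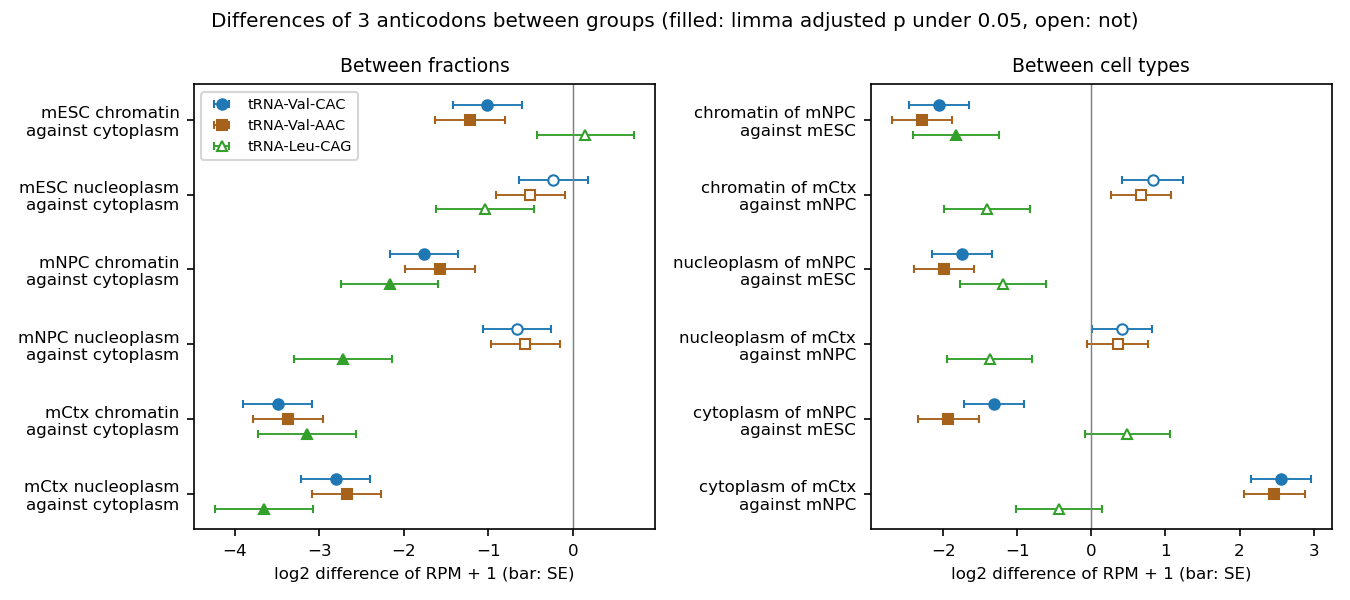
Log2 difference of RPM + 1 for the sums of tRNA-Val-CAC, tRNA-Val-AAC and tRNA-Leu-CAG in each comparison, with bars of 1 SE; filled points passed the limma test at an adjusted p of 0.05. The tRNA-Val-CAC differences run from -3.49 in mCtx chromatin against cytoplasm to 2.56 in cytoplasm of mCtx against mNPC.

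The gene copies behind the valine sums were not in constant proportion. These ratios were chosen after the values were seen and are given without a test. The copy tRNA-Val-CAC-2-1 (chromosome 1, 171111443 to 171111515) had 1868, 2053 and 2721 RPM in mNPC cytoplasm, where its sister tRNA-Val-CAC-2-5, shown above, had 721, 691 and 549 RPM. In the library mNPC cytoplasm 3 the copies tRNA-Val-CAC-2-2, tRNA-Val-CAC-2-3 and tRNA-Val-CAC-2-4 had 907, 911 and 906 RPM, so that tRNA-Val-CAC-2-5 was lower than all 3. The ratio of tRNA-Val-CAC-2-1 to the median of copies 2-2 to 2-5 was 1.38 ± 0.217 in mESC cytoplasm, 2.86 ± 0.228 in mNPC cytoplasm and 1.19 ± 0.0415 in mCtx cytoplasm (SD, n = 3). In chromatin of mNPC that ratio was 1.27 ± 0.223, and in chromatin of mESC it was 1.00 ± 0.0028. As a ratio, the excess of 1 copy was thus largest in the cytoplasm of progenitors, with all 3 libraries between 2.59 and 3.00. As a difference it was 1147, 1363 and 1814 RPM in mNPC cytoplasm and 713, 1673 and 1163 RPM in mCtx cytoplasm, which overlap. The median of copies 2-2 to 2-5 was 773 ± 117 RPM in mNPC cytoplasm and 6172 ± 1308 RPM in mCtx cytoplasm. Entry by entry, in mNPC chromatin against cytoplasm tRNA-Val-CAC-2-1 fell by 2.64 on the log2 scale (limma adjusted p = 7.329e-06) and tRNA-Val-CAC-2-5 by 1.22 (adjusted p = 0.02608). The latter call was lost after centring, outside snoRNA and scaled to tRNA reads. In mCtx against mNPC cytoplasm tRNA-Val-CAC-2-5 rose by 3.23 (limma adjusted p = 2.876e-06) and tRNA-Val-CAC-2-1 by 1.72 (adjusted p = 0.001061). Scaled to tRNA reads, the tRNA-Val-CAC-2-1 rise was lost (limma adjusted p = 0.738).

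A further pair of ratios differed between cell types in cytoplasm. The copy tRNA-Val-CAC-3-1 (chromosome 13, 23300122 to 23300194) was 0.733 ± 0.0673 of the same median of tRNA-Val-CAC-2 copies in mESC cytoplasm, 0.363 ± 0.0394 in mNPC cytoplasm and 0.116 ± 0.0138 in mCtx cytoplasm. The ratio of tRNA-Val-AAC-2-1 (chromosome 13, 23285401 to 23285473) to tRNA-Val-AAC-1-1 had a like order, at 0.727 ± 0.0625 in mESC cytoplasm, 0.378 ± 0.0591 in mNPC cytoplasm and 0.0970 ± 0.0265 in mCtx cytoplasm. In cytoplasm both ratios were thus highest in stem cells and lowest in neurons, without overlap of the 3 cell types. In chromatin the mESC and mNPC libraries overlapped, with means of 0.456 and 0.448 for the first ratio and 0.457 and 0.433 for the second. Of 2 further cytoplasmic ratios, tRNA-Val-AAC-5-1 to tRNA-Val-AAC-1-1 kept the order, at 0.561, 0.351 and 0.180. That of tRNA-Val-CAC-1-1 to the tRNA-Val-CAC-2 median overlapped between mESC (0.231 ± 0.0309) and mNPC (0.221 ± 0.0676). The denominators of the pair ran together: tRNA-Val-AAC-1-1 was 0.888 ± 0.0383 of the same median in mESC cytoplasm, 0.905 ± 0.0088 in mNPC cytoplasm and 0.919 ± 0.0175 in mCtx cytoplasm. Sharing of reads between Val-CAC and Val-AAC entries was not tested, so the ratios are not taken as independent of each other. In cytoplasm of mNPC against mESC tRNA-Val-CAC-3-1 fell by 2.53 (SE 0.41, limma adjusted p = 2.936e-05) and tRNA-Val-AAC-3-1 by 2.48 on the log2 scale (adjusted p = 0.0001031). The sum of Val-CAC over Val-AAC was 1.43 ± 0.104 in mESC cytoplasm, 2.19 ± 0.0352 in mNPC cytoplasm and 2.33 ± 0.0552 in mCtx cytoplasm.

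One valine entry was listed above 0 in neurons alone. The entry tRNA-Val-CAC-4-1 (chromosome 6, 10100371 to 10100443) had 0, 30.8 and 37.7 RPM in mCtx chromatin, 66.2, 54.5 and 44.98 RPM in mCtx nucleoplasm and 300.3, 405 and 398 RPM in mCtx cytoplasm, and 0 in all 18 mESC and mNPC libraries. Only its mCtx values brought it past the filter, so the test adds no separate support for a difference from mNPC. In that test it rose in mCtx against mNPC in each fraction, with limma adjusted p of 0.002562 in chromatin, 7.077e-06 in nucleoplasm and 3.034e-08 in cytoplasm. When all values under 59.1 RPM were set to that floor, the chromatin and nucleoplasm calls were lost and the cytoplasm call held, and the chromatin call was also lost in a fit of the 2 groups alone. Its cytoplasmic level in mCtx was 6.01 ± 0.384% of the median of the tRNA-Val-CAC-2 copies. The entry tRNA-Val-CAC-6-1 (chromosome 17, 59068708 to 59068780) was at 0 in the 3 mCtx chromatin libraries, against 101, 138 and 115 RPM in cytoplasm (limma adjusted p = 0.0001973). The third valine anticodon, tRNA-Val-TAC, was listed in 5 libraries: 131 RPM in mESC nucleoplasm 1, 333 and 59.4 RPM in mESC cytoplasm 1 and 2, and 39.0 and 39.5 RPM in mNPC cytoplasm 1 and 2.

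**Figure D4:**
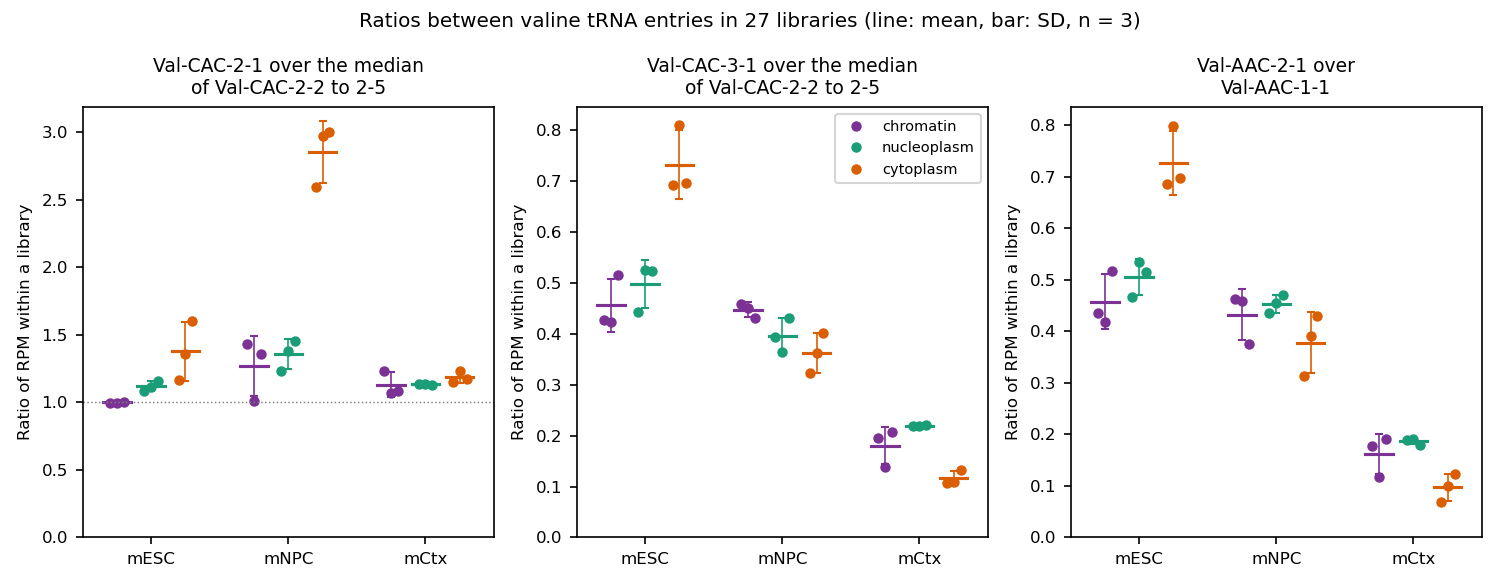
Ratios of RPM between valine tRNA gene copies within each of the 27 libraries, by cell type and fraction; points are libraries, lines means and bars SD (n = 3). The ratio of tRNA-Val-CAC-2-1 to its sister copies is 2.86 ± 0.228 in mNPC cytoplasm, and those of tRNA-Val-CAC-3-1 to the tRNA-Val-CAC-2 copies and of tRNA-Val-AAC-2-1 to tRNA-Val-AAC-1-1 are 0.116 ± 0.0138 and 0.0970 ± 0.0265 in mCtx cytoplasm.

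By the sum over copies, leucine tRNA was led by tRNA-Leu-CAG, which reads the codon CUG, with 9 entries. By single entry tRNA-Leu-CAA-3-1 was higher, at a mean of 364 RPM over the 27 libraries. The highest Leu-CAG copy, tRNA-Leu-CAG-1-5, had a mean of 215 RPM. The tRNA-Leu-CAG sum was 1283, 1309 and 257 RPM in mNPC chromatin and 725, 621 and 304 RPM in mNPC nucleoplasm, against 3198, 3195 and 3870.2 RPM in cytoplasm. In mCtx it had 278, 300.2 and 273 RPM in chromatin and 206, 173 and 217 RPM in nucleoplasm, against 3091, 2279 and 2239 RPM in cytoplasm. In both cell types every nuclear library lay below every cytoplasmic one. The log2 difference in mNPC was -2.17 ± 0.58 in chromatin (limma adjusted p = 0.004824) and -2.72 ± 0.58 in nucleoplasm (adjusted p = 0.001926). In mCtx it was -3.14 ± 0.58 in chromatin (limma adjusted p = 0.0001593) and -3.66 ± 0.58 in nucleoplasm (adjusted p = 7.595e-05). Scaled to tRNA reads the mCtx calls were lost, at adjusted p of 0.3699 in chromatin and 0.05548 in nucleoplasm, and in a fit of the 2 groups alone the mNPC chromatin call was lost, at 0.05164.

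In mESC tRNA-Leu-CAG had 6328, 2305 and 1345 RPM in chromatin and 1917, 1039.8 and 826 RPM in nucleoplasm, against 4138, 2664 and 1306 RPM in cytoplasm. These ranges overlapped. The log2 difference was 0.15 ± 0.58 in chromatin (limma adjusted p = 1) and -1.04 ± 0.58 in nucleoplasm (adjusted p = 0.2876). The change in chromatin against cytoplasm differed between mNPC and mESC by -2.32 ± 0.82 (limma interaction, adjusted p = 0.03512), a call lost with RPM scaled to tRNA reads and in 7 of 12 fits that left out 1 library. Between cell types the cytoplasmic level did not pass the test: the differences were 0.49 ± 0.58 for mNPC against mESC (limma adjusted p = 0.6931) and -0.44 ± 0.58 for mCtx against mNPC (adjusted p = 0.8864). In chromatin it fell by 1.83 on the log2 scale in mNPC against mESC (limma adjusted p = 0.01307). This call was lost without mESC chromatin 1 or without mNPC chromatin 3 (adjusted p up to 0.121), after centring and in a fit of the 2 groups alone. Scaled to tRNA reads, the difference was 0.36 (adjusted p = 0.8136). Of its copies, tRNA-Leu-CAG-2-1 had 29.3, 22.7 and 28.1 RPM in mCtx nucleoplasm, against 389, 285 and 284 RPM in mCtx cytoplasm (-3.53 on the log2 scale, limma adjusted p = 1.271e-05), and tRNA-Leu-CAG-1-4 fell by 2.61 in mNPC nucleoplasm (adjusted p = 0.0005384).

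The tRNA-Leu-CAA group, which reads UUG, was at or near 0 in chromatin of the neural cells. It had 0, 0 and 0 RPM in mCtx chromatin and 81.8, 99.1 and 65.1 RPM in mCtx nucleoplasm, against 558, 695 and 736 RPM in cytoplasm. In mNPC it had 64.4, 0 and 0 RPM in chromatin and 241, 154 and 168 RPM in nucleoplasm, against 449, 877 and 1009 RPM in cytoplasm. It fell in chromatin of both, with limma adjusted p of 2.441e-07 in mCtx and 4.46e-06 in mNPC under every setting tried, and it also fell in chromatin of mNPC against mESC (adjusted p = 4e-05), a call lost in a fit of the 2 groups alone and with the highest copy at a floor of 59.1 RPM. In mCtx nucleoplasm the difference was -3.01 ± 1.03 (limma adjusted p = 0.04581), and it was lost in each of the 6 fits that left out 1 library, with adjusted p between 0.07821 and 0.1148. In mESC the sums were 872, 237 and 108 RPM in chromatin and 392, 379 and 618 RPM in nucleoplasm, against 1311, 1340.3 and 1543 RPM in cytoplasm, and neither difference passed the test (-2.30, limma adjusted p = 0.06574, and -1.63, adjusted p = 0.3895).

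The leading entry of that anticodon was tRNA-Leu-CAA-3-1 (chromosome 11, 58302474 to 58302580). In mESC it had 342, 59.7 and 108 RPM in chromatin, against 972, 1008 and 1429 RPM in cytoplasm, a fall of 3.09 on the log2 scale (SE 1.03, limma adjusted p = 0.01489), and that call was lost with snoRNA reads left out of the scale, after centring and without mESC chromatin 2. The smaller Leu anticodons were listed in few libraries. The entry tRNA-Leu-TAA-2-1 (chromosome 10, 12922571 to 12922653) had 67.5, 81.9 and 65.0 RPM in mNPC cytoplasm and 0 in the 6 nuclear mNPC libraries and in mESC cytoplasm. It was also at 67.0 RPM in mESC chromatin 1, at 88.6 RPM in mESC nucleoplasm 1 and at 48.9 and 41.0 RPM in mCtx cytoplasm 2 and 3. It rose in cytoplasm of mNPC against mESC (limma adjusted p = 0.003197), and the anticodon's calls in mNPC were lost when all values under 59.1 RPM were set to that floor. The anticodon tRNA-Leu-AAG was listed at 72.5 and 93.1 RPM in mESC cytoplasm 1 and 2 and at 34.0 and 18.7 RPM in mCtx cytoplasm 2 and 3. In the same 4 libraries tRNA-Leu-TAG was listed at 38.4, 50.1, 10.9 and 9.76 RPM, in that order, and both anticodons were at 0 elsewhere. Whether these anticodons share reads was not tested.

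Initiator tRNA was listed in every nuclear library of stem cells and in no library of progenitors. In mESC tRNA-iMet-CAT had 1299, 393 and 251 RPM in chromatin and 579, 604 and 278 RPM in nucleoplasm, against 1171, 703 and 0 RPM in cytoplasm. In mNPC all 9 libraries were at 0. In mCtx it had 0, 0 and 0 RPM in chromatin and 174, 0 and 92.9 RPM in nucleoplasm, against 0, 756 and 615 RPM in cytoplasm. It fell in mNPC against mESC in chromatin (limma adjusted p = 0.003587) and in nucleoplasm (adjusted p = 0.003468). The chromatin call held under every setting tried, and the nucleoplasm call was lost with the highest copy in place of the sum and values under 59.1 RPM set to that floor (adjusted p = 0.6055). The cytoplasmic fall (adjusted p = 0.03212) was lost in 5 of 6 fits that left out 1 library, with adjusted p up to 0.1796, and so was the mCtx fall in chromatin against cytoplasm (adjusted p = 0.03984, up to 0.1914).

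The 8 iMet entries were mostly listed at like levels, except in mESC chromatin. There tRNA-iMet-CAT-3-1 (chromosome 13, 21907111 to 21907182) had 279, 393 and 251 RPM, and tRNA-iMet-CAT-1-1 had 145.4, 0 and 0 RPM. In mESC nucleoplasm the same entries had 72.4, 77.7 and 36.5 RPM and 72.4, 75.0 and 37.2 RPM. In chromatin of mNPC against mESC tRNA-iMet-CAT-3-1 alone of the 8 fell (limma adjusted p = 0.0001691), while in nucleoplasm all 8 did, tRNA-iMet-CAT-1-1 with an adjusted p of 0.01473 and tRNA-iMet-CAT-3-1 with one of 0.003418. With the floor of 59.1 RPM these 2 nucleoplasm calls were lost. The lowest value above 0 in mNPC libraries was 22.5 to 59.1 RPM, in the range of some of these levels.

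Elongator tRNA-Met-CAT was a low species with its highest level in neuronal cytoplasm. It had 0, 35.1 and 0 RPM in mCtx chromatin and 23.7, 34.5 and 29.9 RPM in mCtx nucleoplasm, against 473, 233 and 201 RPM in cytoplasm. In mESC it had 0, 0 and 0 RPM in chromatin and 77.7, 0 and 0 RPM in nucleoplasm, against 70.3, 67.9 and 59.8 RPM in cytoplasm, and in mNPC all 9 libraries were at 0. It fell in chromatin against cytoplasm in mCtx (limma adjusted p = 0.0003234) and in mESC (adjusted p = 0.0003352), and rose in cytoplasm of mCtx against mNPC (adjusted p = 2.974e-05). The mESC call was lost when all values under 59.1 RPM were set to that floor, and the 2 others held under every setting tried. In mCtx nucleoplasm against cytoplasm the difference of -3.23 did not pass the test (limma adjusted p = 0.08165), although the libraries did not overlap. It passed with a pseudocount of 10, with the floor of 59.1 RPM on the sum or the highest copy, and in a fit of the 2 groups alone (adjusted p down to 4.099e-08). Of its 2 entries tested, tRNA-Met-CAT-1-2 (chromosome 15, 57975983 to 57976055) had 405, 186 and 170 RPM in mCtx cytoplasm, and tRNA-Met-CAT-1-1 (chromosome 8, 121579229 to 121579301) had 68.0, 34.3 and 31.4 RPM there and 0 in mCtx nucleoplasm (limma adjusted p = 1.378e-05, a call lost with the floor). Outside mCtx cytoplasm tRNA-Met-CAT-1-1 was above 0 only in mESC nucleoplasm 1, so it passed the filter through the group where it was high.

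Alanine and isoleucine tRNAs were near the limit of listing. The tRNA-Ala-AGC sum was 0, 161 and 68.1 RPM in mESC chromatin and 18.9, 0 and 0 RPM in mESC nucleoplasm, against 0 in the 3 mESC cytoplasmic libraries. It rose in mESC chromatin against cytoplasm (limma adjusted p = 0.01087). This call was lost without mESC chromatin 2 or 3 (adjusted p up to 0.09115) and in a fit of the 2 groups alone (adjusted p = 0.106). It was otherwise listed only in mCtx cytoplasm 2 and 3, at 10.6 and 41.6 RPM. The tRNA-Ala-TGC sum was 0, 84.1 and 91.6 RPM in mESC chromatin, against 42.7, 0 and 36.2 RPM in mESC cytoplasm. The single isoleucine entry, tRNA-Ile-TAT-2-3 (chromosome 17, 83861944 to 83862036), had 18.0, 0 and 23.6 RPM in mESC nucleoplasm and 39.1, 21.1 and 16.2 RPM in mCtx cytoplasm, and 0 in the other 7 groups. It fell in mCtx chromatin (limma adjusted p = 1.894e-05) and mCtx nucleoplasm (adjusted p = 5.405e-05) against cytoplasm and rose in mESC nucleoplasm against cytoplasm (adjusted p = 0.004584). The 2 falls add no separate support, since without mCtx cytoplasm it was above 0 in only 2 libraries and would have missed the filter. All 3 calls were lost when all values under 59.1 RPM were set to that floor, the last also in a fit of the 2 groups alone, and every one of its values lies under it.

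The table also lists tRNA fragments under names of their own, and 9 of the 34 carry these amino acids. The highest was a fragment from the 3′ part of an alanine tRNA, tRNA-Ala-AGC-2-1-tRF3. It had 994 ± 205 RPM in mESC chromatin and 247 ± 51.5 RPM in mESC nucleoplasm, against 245 ± 102 RPM in mESC cytoplasm (SD, n = 3). In mCtx it had 373 ± 38.1 RPM in chromatin and 60.3 ± 9.04 RPM in nucleoplasm, against 126.4 ± 35.2 RPM in cytoplasm. For Ala in mESC and mCtx, then, the fragment entry was listed higher than the tRNA entries themselves, and in both cell types its mean was highest in chromatin. In mNPC the fragment had 81.2, 249 and 165 RPM in chromatin and 0, 0 and 45.3 RPM in nucleoplasm. In mNPC cytoplasm it had 0, 36.7 and 0 RPM, against 0, 0 and 40.6 RPM for the Ala tRNA entries. In mESC chromatin against cytoplasm, 1 of the 7 fragment entries tested rose and 2 fell.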

How the data were processed

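RNA of chromatin, nucleoplasm and cytoplasm was made into small RNA libraries from size-selected RNA after rRNA removal, per the labels' protocols. The authors deposited 1 table of reads per 1000000 (RPM) for 1013 entries in 27 libraries; its values sum to 73.87% to 97.44% of 1000000 per library. The aligner is not given in the sources used here, nor the counting rule or depth; no count or interval was derived. Values were tested on log2(RPM + 1) with limma 3.58.1 in R 4.3.3 (trend and robust estimation, 9 group means, entries at 1 RPM or more in at least 3 libraries), with Benjamini-Hochberg adjustment over all 851 entries, or over 729 features after tRNA entries were summed by anticodon. The fit was tested on simulated data. Entries named were, by rule, the highest of each anticodon, every Met and iMet entry above 0 in at least 3 libraries, and per comparison up to 3 passing entries a direction above 0 in all 6 libraries and up to 2 with a group at 0. The members and lists were chosen with earlier results of these data known. Alternatives were other pseudocounts, floors, filters and scalings, a replicate block, fits of 2 groups, each library left out, and, chosen after seeing the data, the highest copy in place of the sum, also with the floor. Sequence and gene coordinates are from RefSeq GRCm38.p6.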

Additional observations from a re-analysis of the deposited data

Results flagged for a closer look

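The change in chromatin against cytoplasm was compared between cell types by a limma interaction on the anticodon sums, and 8 differences had an adjusted p under 0.05. Among all 729 features 20.6% were higher and 11.2% lower for mNPC against mESC, and 7.27% were higher and 9.47% lower for mCtx against mNPC. Of those with no library at 0, tRNA-Leu-CAG differed by -2.319 on the log2 scale for mNPC against mESC (adjusted p = 0.03512). For mCtx against mNPC tRNA-Val-CAC differed by -1.734 (adjusted p = 0.0463) and tRNA-Val-AAC by -1.8 (adjusted p = 0.04166). The valine differences held in 5 of 11 alternatives and 2 of 12 fits leaving out a library for Val-CAC, and in 8 of 11 and 3 of 12 for Val-AAC.

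The other 5 rest on groups listed at 0, so their fitted sizes depend on the pseudocount and are not folds. For mNPC against mESC they were -5.211 for tRNA-Leu-CAA (limma adjusted p = 0.009339), -8.201 for tRNA-Leu-TAA (adjusted p = 0.0084) and 6.063 for tRNA-Met-CAT (adjusted p = 0.01315), the last with all mNPC libraries at 0. For mCtx against mNPC they were -6.416 for tRNA-Met-CAT (limma adjusted p = 0.01771) and -4.633 for tRNA-Ile-TAT (adjusted p = 0.002533). Without its mCtx cytoplasm values tRNA-Ile-TAT would have missed the filter. With all values under 59.1 RPM set to that floor, the calls for Leu-CAA, Leu-TAA, Ile-TAT and, for mNPC against mESC, Met-CAT were lost. The Met-CAT call for mCtx against mNPC was lost with RPM scaled to tRNA reads (adjusted p = 0.05509) and without mCtx chromatin 1 or 3 (adjusted p up to 0.0597).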

How the results depend on the processing

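Of 61 anticodon results with an adjusted p under 0.05 in limma, 11 kept that call under every alternative and with each library left out; of 1106 alternative values 7 reversed and 188 lost the call. The cause was not tested for any of them. Scaled to tRNA reads, the differences for mNPC against mESC became 0.1323, 0.1893 and 0.08189 for tRNA-Val-CAC in chromatin, nucleoplasm and cytoplasm and 0.3602 for tRNA-Leu-CAG in chromatin, and the valine interactions for mCtx against mNPC 0.1898 (tRNA-Val-CAC) and 0.1243 (tRNA-Val-AAC). Scaled to reads outside snoRNA, tRNA-Val-CAC in mESC chromatin against cytoplasm became 0.1335.

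Counts of entries that passed also moved by over 1.5 times. The shares over all entries given earlier belong to the main fit and are no baseline for counts under the alternatives. In mESC chromatin against cytoplasm the 14 became 6 with a filter of 14 libraries and 2 in a fit of 2 groups, and the 5 in mESC nucleoplasm became 0 with that filter, 1 with the common floor, 1 in a fit of 2 groups and 9 with a replicate block. In mNPC chromatin the 22 became 12 after centring and 8 outside snoRNA, and in mNPC nucleoplasm the 6 became 10 with a pseudocount of 10, with the common floor and in a fit of 2 groups. In mCtx chromatin the 26 became 14 scaled to tRNA reads, and in mCtx nucleoplasm the 23 became 6 so scaled and 13 after centring. For mNPC against mESC the 26 in chromatin became 6 scaled to tRNA reads and 12 in a fit of 2 groups; the 23 in nucleoplasm became 12 so scaled, 14 with the common floor and 11 with the filter of 14 libraries; and the 16 in cytoplasm became 10 with that filter. For mCtx against mNPC the 7 in chromatin became 14 after centring, 14 scaled to tRNA reads and 0 with the common floor. The 7 in nucleoplasm became 2 with a pseudocount of 10, 0 with the common floor, 4 with the filter of 14 libraries, 12 after centring and 11 in a fit of 2 groups, and the 14 in cytoplasm became 8 with that filter. At an unadjusted p under 0.05 in limma, 5 fell and 2 rose in mESC nucleoplasm against cytoplasm.

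With each library left out the counts in chromatin and nucleoplasm against cytoplasm ran from 10 to 26 and 2 to 6 in mESC, 14 to 23 and 5 to 9 in mNPC, and 22 to 37 and 18 to 22 in mCtx. For mNPC against mESC they ran from 17 to 26 in chromatin, 22 to 25 in nucleoplasm and 13 to 23 in cytoplasm, and for mCtx against mNPC from 4 to 11, 2 to 7 and 12 to 27. Without mESC chromatin 1 the counts were 26 against cytoplasm and 17 for mNPC against mESC. Without mNPC chromatin 3 they were 14 against cytoplasm and 11 for mCtx against mNPC, and 4 without mNPC chromatin 1 or 2. Without mESC cytoplasm 1 or 2 the mESC nucleoplasm counts were 2 and 3, without mCtx cytoplasm 1 the cytoplasm of mCtx against mNPC had 27, and without mCtx nucleoplasm 1 the nucleoplasm had 2.

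The log2 ratio of the share of tRNA reads was -1.17 in mESC, -1.32 in mNPC and -0.99 in mCtx for chromatin against cytoplasm, and ran from -1.637 to -0.7646, -1.583 to -0.8585 and -1.126 to -0.9055 with each library left out. In cytoplasm it was 0.21 for mNPC against mESC (0.1354 to 0.2769) and 0.57 for mCtx against mNPC (0.4872 to 0.7081). As shares of all listed reads, mCtx chromatin became -3.25, and the cytoplasm ratios became -1.362 and 2.013. Whether the replicate numbers pair the samples is not known. No comparison had every same-number correlation of deviations over 0.1, but such a cut-off cannot show that samples are unpaired. With the block, the counts other than that of mESC nucleoplasm against cytoplasm moved by less than 1.5 times. Every sample correlated best with its own number in 3 comparisons. Depth is unknown, and values at 0 lie under a floor of 5.16 to 59.1 RPM that differs between libraries.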

Other observations

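Further fragment entries of these amino acids were listed mainly in stem cells. The fragment from the 5′ part of an alanine tRNA, tRNA-Ala-TGC-3-1-tRF5, had 300.3, 167 and 301 RPM in mESC chromatin and 36.9, 0 and 32.95 RPM in mESC nucleoplasm, against 38.6, 53.7 and 0 RPM in mESC cytoplasm, and was at 0 in all 9 mCtx libraries. The isoleucine fragment tRNA-Ile-AAT-1-1-tRF3 had 0, 0 and 0 RPM in mESC chromatin, against 142.7, 88.7 and 59.1 RPM in mESC cytoplasm, and 50.2, 39.5 and 65.0 RPM in mNPC cytoplasm. The fragment tRNA-Ile-AAT-1-4-tRF5 was listed in mESC nucleoplasm, at 66.4, 100.4 and 97.4 RPM, and in 1 mESC chromatin library, at 72.5 RPM. These entries were chosen after their values were seen and are given without a test.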
